A study of Mus musculus with 7 samples.

Results

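The 10 serotonin receptor genes Htr1a, Htr1b, Htr1d, Htr2a, Htr2c, Htr3a, Htr3b, Htr4, Htr6 and Htr7 were followed through 7 single-neuron transcriptomes of mouse hippocampus. They were chosen by name, as rows of the deposited tables that carry these symbols, and make up 10 of the 21414 genes named in all 7 tables. Each library held RNA, cytoplasmic and nuclear per the labels, of 1 long-range VIP neuron, an inhibitory cell of the CA1 stratum oriens/alveus whose axon was traced to the subiculum. The cells came from untreated mice of the VIP-eGFP strain, in which a green fluorescent protein marks cells that use the gene for vasoactive intestinal polypeptide (Vip). The labels put all cells in 1 group, numbered 1 to 7, name no animal, age or second condition, and so allow no test between conditions; the group counts as 1 sample, and an SD or range below is a spread between cells.

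Serotonin reaches the hippocampus through axons of the raphe nuclei and acts there through 2 kinds of receptor. The 5-HT3 receptors, built from the subunits encoded by Htr3a and Htr3b, are cation channels that open when serotonin binds, and Htr3a is a known marker of cortical and hippocampal interneurons that arise in the caudal ganglionic eminence, VIP and cholecystokinin cells among them. The other members encode G-protein-coupled receptors. Those of the Htr1 genes couple to Gi/o and lower cyclic AMP, those of Htr2a and Htr2c couple to Gq and phospholipase C, and those of Htr4, Htr6 and Htr7 couple to Gs and raise cyclic AMP.

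Levels are given in TPM, transcripts per 1000000, a scale that corrects for transcript length and so lets members be ordered within a cell. The libraries held 1052327 to 3398521 estimated counts. A gene counts here as detected above 1 TPM, and a value of 0 is read against its floor, meaning the level that 3 counts of the gene would reach in that library. The tables of cells 1 to 6 list RefSeq transcripts and that of cell 7 lists Ensembl transcripts, so the tables were normalised separately, which limits every level set side by side across cells. The share of TPM on protein-coding genes ranged between 13.1% (cell 6) and 72.5% (cell 7). Vip was above 1 TPM in 7 of 7 cells (25.3 to 5006 TPM), as was Gad1, which encodes an enzyme of GABA synthesis (9.59 to 490 TPM).

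The cells differed in which serotonin receptor transcripts they held. Cell 2 held Htr3a, Htr6 and Htr2c, cell 3 held Htr1d and Htr3b, cell 4 held Htr3a and Htr7, cell 5 held Htr1a, Htr1d and Htr4, and cell 7 held Htr3a, whereas no member was above 1 TPM in cells 1 and 6. Rescaled to the protein-coding genes of each table, both of these cells had members above 1 TPM. These were Htr1d (1.51 TPM) and Htr4 (1.12 TPM) in cell 1, and Htr3a (1.13 TPM, from 1 count) in cell 6. The counts below use TPM without this rescaling. Of the 10 members, 8 were above 1 TPM in at least 1 cell, beside 55.2% of the 20791 protein-coding genes named in all tables. Exactly 1 cell was above 1 TPM for 6 of the 10 members, beside 14.6% of all protein-coding genes. Among genes above 1 TPM in at least 1 cell, these were 6 of 8 members and 3044 of 11468 protein-coding genes. Htr1d was above 1 TPM in 2 cells (11.9% of protein-coding genes were) and Htr3a in 3 cells, while 28.7% of protein-coding genes were above 1 TPM in at least 3. Htr1b and Htr2a were above 1 TPM in no cell, as were 44.8% of protein-coding genes. In all, 11 of 70 member values, or 15.7%, were above 1 TPM, beside 23.5% of the values of protein-coding genes. For 5 of the 8 members with counts, the gap between the highest cell and the next filled most of the range of log2(TPM + 1), and 1 cell stood apart in this way for 38.5% of the 13266 protein-coding genes whose values differed between cells.

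**Figure D1:**
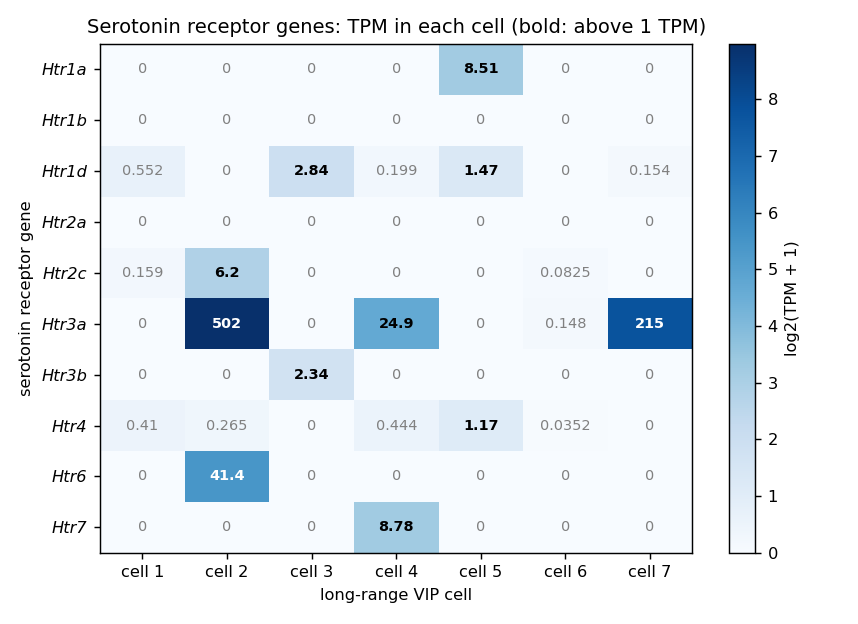
TPM of each of the 10 serotonin receptor genes (rows) in each of the 7 cells (columns), with the tile colour giving log2(TPM + 1) and values above 1 TPM in bold. Htr3a reaches 502, 24.9 and 215 TPM in cells 2, 4 and 7; 6 members are bold in a single cell, and cells 1 and 6 have no bold value.

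The number of members per cell can be read against the number of genes the library detected. Cell 2 had 3 members above 1 TPM with 38.8% of protein-coding genes above it, and cell 5 had 3 members with 32.7%. Cells 3 and 4 had 2 members each, with 24.8% and 21.3% of protein-coding genes. Cell 7 had 1 member with 14.6%, and cells 1 and 6 had none with 14.8% and 17.3%. The 2 cells with the most detected genes thus also had the most members. Cells 1 and 6 were among the 3 with the fewest detected genes. Detected genes and depth did not run together in every cell. Cells 1 and 6 held 1123136 and 1110597 estimated counts, and cell 4, with 2 members, held 1052327. Cell 7, with the fewest detected genes, held 3225330. Depth was not tested as a source of the missing receptors of cells 1 and 6. The summed level of the 10 members was highest in cells 2 (550 TPM) and 7 (215 TPM). Cells 4, 5 and 3 followed with 34.3, 11.2 and 5.17 TPM, and cells 1 and 6 were lowest with 1.12 and 0.265 TPM.

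Htr3a, which encodes the subunit that every 5-HT3 channel needs, had the highest summed level of the members. Cells 2, 7 and 4 had 502, 215 and 24.9 TPM, cell 6 had 0.148 TPM, and cells 1, 3 and 5 were at 0. Cells 2, 7 and 4 were thus high and the other 4 had at most 1 estimated count. The counts behind the 3 high values were 2183, 1357 and 80 in cells 2, 7 and 4. Their 95% Poisson intervals were 481 to 523, 204 to 227 and 19.7 to 31.0 TPM. These intervals cover counting error only and not the spread between libraries, and the level of cell 7 comes from another transcript list. Where Htr3a was at 0, the floor was 0.579 to 0.847 TPM. Over the 7 cells Htr3a took 90.8% of the summed TPM of the 10 members, and Htr6 came next with 5.06%, all of it from cell 2, the cell with the highest sum. Its share within a cell was 91.3% (cell 2), 99.9% (cell 7), 72.5% (cell 4) and 55.7% (cell 6, from 1 count), and 0% in cells 1, 3 and 5, with an SD between cells of 44.9 percentage points. Rescaled to the protein-coding genes of each table, the 3 cells kept this order, at 854, 296 and 76.5 TPM for cells 2, 7 and 4. On that scale the 1 count of cell 6 gave 1.13 TPM.

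The Htr3a transcripts allowed a closer look at which form of the channel subunit was made. GENCODE M21 annotates 2 forms on mouse chromosome 9 (mm10, 48899213 to 48911099, minus strand), which differ in where the last of 9 exons begins. The annotated transcripts, of 1987 bases (short form) and 2082 bases (long form), also differ in length elsewhere. The long form, matched to RefSeq NM_013561.2, carries 18 more coding bases, or 6 codons, at chr9:48899991-48900008 on the minus strand, in the part that encodes the large intracellular loop of the subunit. The short form, matched to NM_001099644.1, lacks them. The stretch across the junction of exons 8 and 9 is shown for both, because it holds this difference of 18 bases. The 30 bases on each side are in lower case and the bases of the long form alone in capitals.
Htr3a short form: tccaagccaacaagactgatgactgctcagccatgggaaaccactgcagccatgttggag
Htr3a long form: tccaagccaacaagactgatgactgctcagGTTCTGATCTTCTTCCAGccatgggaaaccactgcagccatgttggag

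The short form held most Htr3a counts in the 2 cells where the forms could be told apart. In cell 2 it had 2005 of 2183 estimated counts, or 91.9% (exact binomial 95% interval 90.6% to 93.0%). The long form had 145 counts there, and another, predicted transcript of 2088 bases had 32.7. In cell 4 the short form had 80.0 of 80 counts (lower bound of the interval 95.5%). The table of cell 7 lists 1 Htr3a transcript, the long form, so all 1357 counts were assigned to it and the forms were not separated. The intervals cover counting error and not the assignment of reads between transcripts. Gm32335, an antisense gene annotated across part of Htr3a, shares 0 exon bases with it. It was listed at 0 in cells 1, 2, 4, 5 and 6, had 16.3 counts (2.04 TPM) in cell 3, and was not found by this symbol in the table of cell 7.

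**Figure D2:**
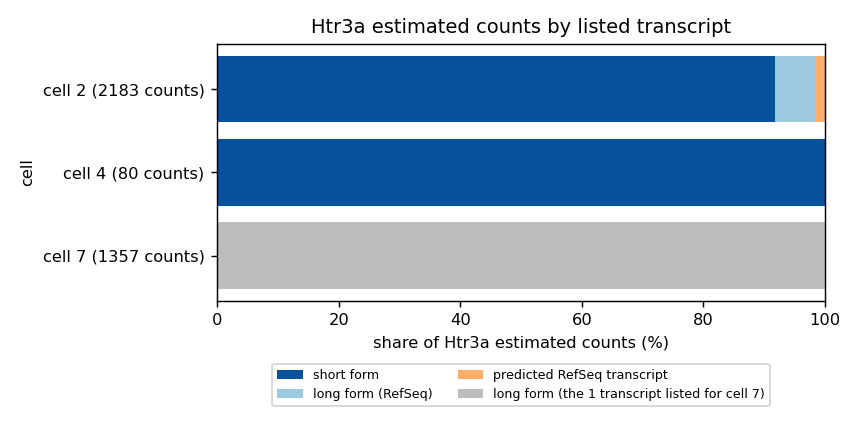
Share (%) of Htr3a estimated counts given to each listed transcript in cells 2, 4 and 7, with the total counts beside each cell. The short form takes 91.9% in cell 2 and nearly all of 80 counts in cell 4; for cell 7 the table lists the long form alone, so the grey bar does not measure the split.

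Htr3b encodes the partner subunit that forms channels with the 5-HT3A subunit and not by itself, and its gene lies next to Htr3a, 23908 bases away on the same strand (48935008 to 48964990). It was above 1 TPM in cell 3 alone, at 2.34 TPM from 14.1 estimated counts, with a 95% Poisson interval of 1.27 to 3.89 TPM. Htr3a was at 0 in that cell, where its floor was 0.579 TPM. In the 3 cells that held Htr3a, Htr3b was at 0, and over all cells where it was at 0 its floor was 0.377 to 0.792 TPM. No cell therefore had both subunit genes above 1 TPM.

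Of the genes for Gi/o-coupled receptors, Htr1a was above 1 TPM in cell 5 alone, at 8.51 TPM from 93 counts. In the other 6 cells it was at 0, with a floor of 0.199 to 0.417 TPM. Htr1a encodes the 5-HT1A receptor, the main inhibitory serotonin receptor of hippocampal neurons. Htr1d, whose product is known as a receptor on nerve endings, was at 2.84 TPM in cell 3 (22.8 counts) and 1.47 TPM in cell 5 (11.2 counts). Cells 1, 4 and 7 had 3.03, 1.00 and 1 counts, and cells 2 and 6 had 0. The interval in cell 5 was 0.719 to 2.58 TPM and spanned the threshold. In each of the 4 RefSeq tables with Htr1d counts, all of them lay on 1 of 7 listed transcripts, the predicted transcript XM_017319986.1. Htr1b, another receptor of nerve endings, was at 0 in 7 of 7 cells. Its floor was 0.330 to 1.78 TPM and exceeded 1 TPM in 5 cells, so a level just above the threshold was not detectable there.

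For Gq-coupled receptors, Htr2c was above 1 TPM in cell 2 alone, at 6.20 TPM from 65 counts (4.78 to 7.90 TPM). Cells 1 and 6 had 1 count each and the other 4 had 0. Htr2c is known for RNA editing of its coding sequence, which tables of transcript totals do not show. Htr2a, the target of classical psychedelics, was at 0 in 7 of 7 cells, with a floor of 0.302 to 0.634 TPM.

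All 3 genes for Gs-coupled receptors were found above 1 TPM, each in a different cell. Htr6 was at 41.4 TPM in cell 2 (151 counts, 35.0 to 48.5 TPM) and at 0 in the other 6 cells, where its floor was 0.358 to 0.753 TPM. Its counts were split between 2 RefSeq transcripts, with 93.5 on NM_021358.2 and 57.5 on XM_011250196.2. Htr7 was at 8.78 TPM in cell 4 (43.0 counts, 6.35 to 11.8 TPM) and at 0 in the other 6, with a floor of 0.281 to 0.542 TPM. Htr4 differed from both in that low counts were spread over more cells. Cells 1, 2, 4, 5 and 6 had 6.07, 4.05, 6.02, 24.1 and 1 counts of it, which gave 0.410, 0.265, 0.444, 1.17 and 0.0352 TPM. Cell 5 was the highest for Htr4, with an interval of 0.745 to 1.73 TPM that spanned the threshold. On the scale rescaled to protein-coding genes, Htr4 was above 1 TPM in 3 cells.

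**Figure D3:**
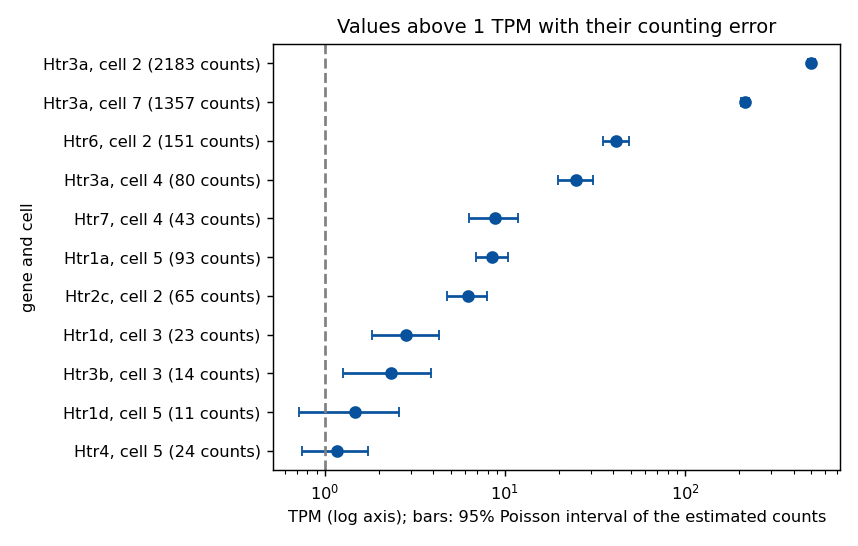
The 11 member values above 1 TPM on a log axis, with the estimated counts beside each and bars for the 95% Poisson interval of the counts; the dashed line is 1 TPM. The intervals of Htr1d and Htr4 in cell 5 cross the line, and those of the other 9 values lie above it.

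By coupling class, a 5-HT3 subunit gene was above 1 TPM in 4 of 7 cells, in cell 3 Htr3b without Htr3a. A Gs-coupled receptor gene was above it in 3 cells, a Gi/o-coupled one in 2 and a Gq-coupled one in 1. The classes differ in size, with 2, 3, 3 and 2 genes. In the same order, 4 of 14, 3 of 21, 3 of 21 and 1 of 14 values were above 1 TPM, beside 23.5% of the values of all protein-coding genes. Cells 2 and 4 held a 5-HT3 subunit gene together with a Gs-coupled receptor gene, cell 3 held a subunit gene with a Gi/o-coupled one, and cell 5 held Gi/o- and Gs-coupled ones without a subunit gene. Of the 4 serotonin receptor genes outside the 10 members, 2 were above 1 TPM in at least 1 cell, beside 55.2% of all protein-coding genes. Of their values 7.14% were above it, beside 23.5%. Htr1f, for another Gi/o-coupled receptor, was at 7.67 TPM (46 counts) in cell 5 and 0.125 TPM in cell 7. Htr5b was at 6.62 TPM (28 counts) in cell 2 alone. Htr2b had about 2 counts in each of cells 2 and 5, and Htr5a was at 0 in 7 of 7 cells.

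The pattern of Htr3a over the 7 cells was set beside that of the other protein-coding genes. Likeness was the Pearson correlation of log2(TPM + 1) over 7 cells, given as a description without a test. It was computed for the 7474 genes whose mean on this scale reached 1, and 45 of them (0.602%) had r of at least 0.9. The 5 most alike were Cnih1 (r = 0.98, rho = 0.90), Slc38a7 (r = 0.97, rho = 0.75), Ascl4 (r = 0.97, rho = 0.81), Fam219b (r = 0.96, rho = 0.81) and Ndufaf4 (r = 0.96, rho = 0.75). Cnih1 encodes a cornichon-family cargo receptor and reached 165, 32.3 and 381 TPM in cells 2, 4 and 7, with 0 elsewhere. Ascl4, a transcription factor gene, reached 9.23, 1.79 and 10.1 TPM in the same cells. The 7 points share library, depth and table with both genes of each pair, and the number of genes past 0.9 moved with single cells. It was 89 without cell 2, 75 without cell 3, 170 without cell 4, 110 without cell 5 and 279 without cell 7.

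Among genes of interneuron classes, those closest to Htr3a were Cnr1, the cannabinoid receptor gene (r = 0.74, rho = 0.41), and Cck, for cholecystokinin (r = 0.73, rho = 0.50). Both were highest in cells 2 and 7. Cell 2 had 8825 TPM of Cck and 1077 TPM of Cnr1, and cell 7 had 6152 TPM of Cck and 638 TPM of Cnr1. Cell 4, which also held Htr3a, had Cck at 0 and Cnr1 at 26.0 TPM, the second lowest Cnr1 level of the 7 cells. Vip followed Htr3a less closely (r = 0.47, rho = 0.33), and cell 4 had both Htr3a at 24.9 TPM and the lowest Vip of the 7 cells. Adarb2 lay between Cck and Vip (r = 0.61, rho = 0.41). The lowest r of the 12 class genes belonged to Pvalb (r = -0.67, rho = -0.62), for parvalbumin, and Lamp5 (r = -0.51, rho = -0.59), a gene of neurogliaform cells. Sst (r = 0.04) and Npy (r = -0.10) followed Htr3a little in either direction, and were at 501 and 609 TPM in cell 7. Lamp5 was at 2.01 TPM in cell 2 and 1.15 in cell 7, but at 203 TPM in cell 4. It was at 0 in cell 6, where Htr3a had 1 count.

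**Figure D4:**
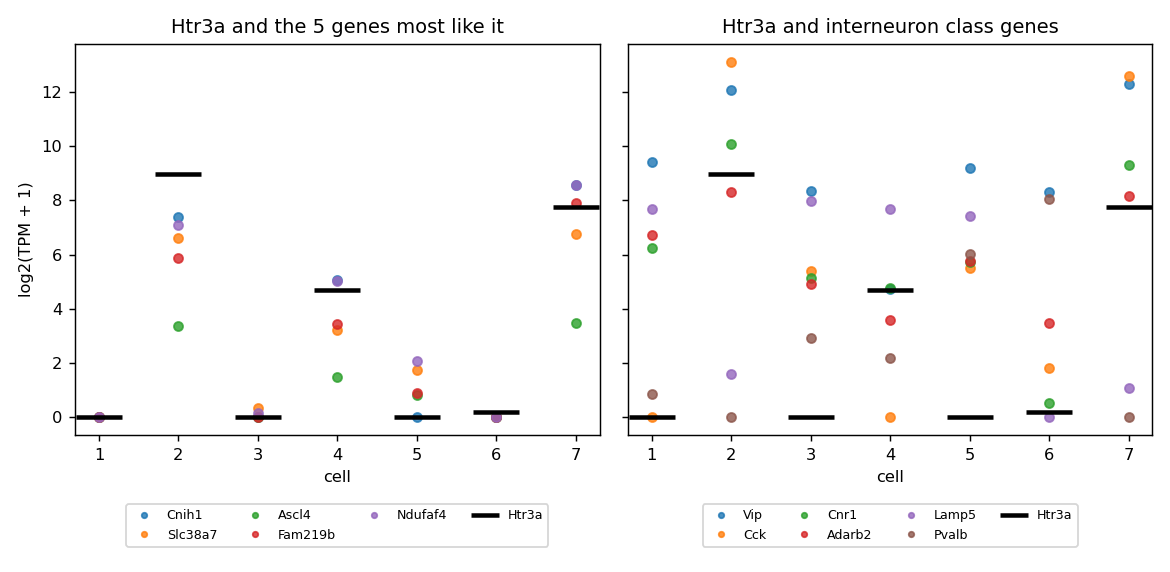
Log2(TPM + 1) in each of the 7 cells for Htr3a (black bars) and, left, the 5 protein-coding genes with the highest Pearson r or, right, 6 interneuron class genes (coloured points). Htr3a is high in cells 2, 4 and 7; Cck and Cnr1 peak in cells 2 and 7 but not in cell 4, where Lamp5 is at 203 TPM.

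RNA typical of other cell types stood beside these values. The summed TPM of 8 oligodendrocyte markers ran from 113 to 20793 and was highest in cell 7, and that of 5 red blood cell markers ran from 104 to 10494 and was highest in cell 2. The 10 pyramidal neuron markers summed to 13.5 to 471 TPM, with 2 to 5 of them above 1 TPM per cell, and the sum was highest in cell 7 and lowest in cell 4, both of which held Htr3a. Their glutamate transporter gene Slc17a7 had 52.2 and 7.38 TPM in cells 2 and 7 and at most 1 count elsewhere. Of the same markers, Nrgn was highest in cell 7 (458 TPM) and Neurod2 in cell 2 (18.8 TPM), cells that held Htr3a. Camk2a was highest in cell 1 (62.2 TPM) and Neurod6 in cell 5 (22.1 TPM), where Htr3a was at 0. Of the pyramidal markers Tbr1, Emx1 and Neurod1 were at 0 in 7 of 7 cells, as were Gfap of the astrocytes and Cldn5 and Pdgfrb of the vessels. The floor reached 1.73 TPM for Emx1 and 1.41 TPM for Cldn5, above the threshold. By contrast, 6 of 8 astrocyte and 3 of 8 vascular markers were above 1 TPM in at least 1 cell, beside 55.2% of all protein-coding genes. Gja1 reached 618 TPM in cell 1, and Aldoc and Pecam1 reached 2150 and 83.7 TPM in cell 7. The 8 astrocyte markers summed to 29.8 to 2753 TPM, the 8 microglia markers to 1.55 to 1702 and the 8 vascular markers to 0 to 87.3. The part of these cell types in the receptor values was not tested.

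Of 5 markers of serotonergic neurons, 3 were at 0 in 7 of 7 cells and 2, Slc18a2 and Ddc, were not. The 5 summed to 0 to 48.5 TPM per cell. Tph1 and Tph2, for the enzymes that start serotonin synthesis, Slc6a4, for the serotonin transporter, and Fev, a transcription factor of raphe neurons, were at 0 in 7 of 7 cells. Of 9 genes for serotonin synthesis, transport and breakdown, 6 were above 1 TPM in at least 1 cell, beside 55.2% of all protein-coding genes. Slc18a2, the vesicular monoamine transporter gene, had 17.2, 13.7 and 45.8 TPM in cells 2, 3 and 5, and was at 0 elsewhere. Ddc, for the decarboxylase shared by serotonin and dopamine synthesis, had 4.99, 0.639, 2.69 and 39.1 TPM in cells 1, 3, 5 and 6. Slc29a4, which encodes a low-affinity monoamine transporter, was at 211 TPM (1049 counts) in cell 1, a cell with no receptor member above 1 TPM, and at 0 in the other 6. Slc22a3, another such transporter, was at 3.48 TPM in cell 6 alone. The monoamine oxidase genes Maoa and Maob reached 11.7 and 40.5 TPM in cell 2, and were above 1 TPM in 4 and 2 cells.

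Ric3 encodes a chaperone of 5-HT3 and nicotinic receptors. It was at 52.0 TPM (447 counts) in cell 2, the cell with the most Htr3a, and at 0.320 TPM (5.24 counts) in cell 7, and was at 0 in the other 5, cell 4 included. Tmem35a, a chaperone gene of nicotinic receptors listed as Tmem35, had 17.2, 3.48 and 0.327 TPM in cells 2, 3 and 4.

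Genes of the signalling steps downstream of the receptors were above 1 TPM in more of the cells than the receptor genes, a difference that was not tested. Of 9 genes of Gi/o signalling, 63.5% of values were above 1 TPM, of 8 Gq genes 55.4% and of 10 Gs genes 55.7%. This stood beside 15.7% for the receptors and 23.5% for all protein-coding genes. A gene above 1 TPM in at least 6 cells was rare among all protein-coding genes, at 6.49%. In the Gi/o list, Gnai2 and Gnaz, for inhibitory G-protein alpha subunits, and Rgs4, a regulator that ends their signal, reached at least 6 cells. Gnai2 was at 3.22 to 210 TPM and Rgs4 at 0.242 to 532 TPM. In the Gs list these were Gnas, Gnal, Prkaca and Prkacb, with Gnas, for the stimulatory alpha subunit, at 76.0 to 1203 TPM in 7 of 7 cells. Prkcb, a protein kinase C gene, was the 1 gene of the Gq list to do so, at 0.420 to 69.0 TPM, and the phospholipase gene Plcb3 was at 0 in every cell. Cells 1 and 6, with no receptor member above 1 TPM, had 6 of 9 Gi/o genes each and 6 of 10 Gs genes each above it, and 4 and 2 of 8 Gq genes. In these cells 14.8% and 17.3% of all protein-coding genes were above it.

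Of 10 genes for receptor partners and RNA editing, Fyn, Cdk5 and Cops5 were above 1 TPM in 6 cells. Their products are reported to bind the 5-HT6 receptor, and Cdk5 reached 286 TPM in cell 1. Adarb1, for an editing enzyme that acts on Htr2c, had 49.7, 18.5 and 1.99 TPM in cells 2, 5 and 6, of which cell 2 held Htr2c. Adar, another editing gene of the list, was highest in cell 3 (33.8 TPM), where Htr2c was at 0, and had 10.4 TPM in cell 2. Mpdz, whose product binds the 5-HT2C receptor, was at 6.04 TPM in cell 2 and 1.03 in cell 3. S100a10, for a protein that binds the 5-HT1B and 5-HT4 receptors, was at 0 in 7 of 7 cells, although its floor of 1.61 to 3.45 TPM lay above the threshold. Cell 7 had none of these 10 genes above 1 TPM, beside 14.6% of all protein-coding genes. Besides S100a10, the list genes Arrb1, Dlg4, Mpdz and Arrb2 were at 0 there with floors of 2.65, 1.78, 1.46 and 1.12 TPM. A level just above the threshold was thus not detectable for them in that cell.

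**Figure D5:**
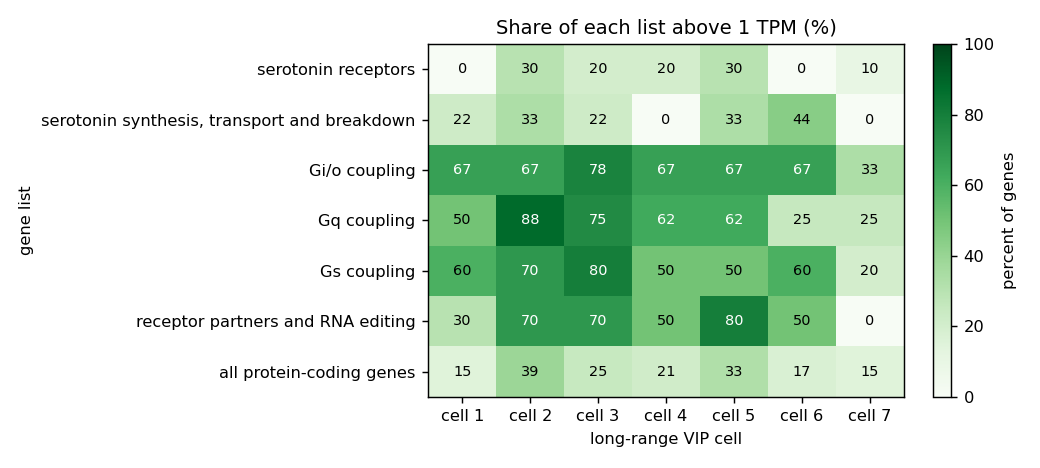
Share (%) of the genes of each list above 1 TPM in each of the 7 cells, with all 20791 protein-coding genes in the bottom row. The serotonin receptor row runs from 0 to 3 of 10 genes, whereas the 3 G-protein rows have 2 to 8 genes above 1 TPM in every cell; cell 7 is lowest or tied for lowest in each of those 3.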

How the data were processed

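Per the labels' protocols, cells were aspirated after patch-clamp recording, and cDNA was made with SMART-Seq v4 and Nextera XT, which keep no strand and carry no molecular identifiers. STAR 2.5.2a, kallisto and mm10 appear in the submitters' processing notes; the transcript annotation is not given in the sources used here. Per the file headers, the authors deposited, for each transcript, its estimated count and its TPM. Both were summed per symbol. Symbols lost to dates or missing were looked up by accession (122 of 157 in cells 1 to 6, 81 of 1210 in cell 7). Intervals (Poisson, exact binomial) used rounded counts and cover counting error only, since PCR copies are not independent molecules. The floor used a gene's median effective length. Positions and Htr3a sequences are from GENCODE M21 (mm10); its transcripts were matched to RefSeq by GENCODE's own table. Python 3.11.15, pandas 2.3.3 and scipy 1.17.1 were used, and the correlation was tested on simulated data. With 1 group and no animal named, no p-value was computed. The members, the gene lists and the alternatives (thresholds, pseudocounts, scaling, transcript choice, each cell left out) were chosen with earlier results of these data known. The rule for named genes took every member, the 5 genes most like any member above 1 TPM in at least 3 cells, list genes above 1 TPM in at least 6 cells, and all genes of the lists for other serotonin receptors, serotonin handling and 5-HT3 assembly. Other genes named from the lists, among them Adarb1, Mpdz, S100a10, Plcb3, Cck, Cnr1, Lamp5 and Pvalb, were chosen after their values were seen.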

Additional observations from a re-analysis of the deposited data

Results flagged for a closer look

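For 5 of the 8 members with any counts, a single cell stood apart, its gap to the next cell filling most of the gene's range over the 7 cells. The same was true of 38.5% of the protein-coding genes whose values differed between cells. The usual chance rate of this rule, about 1 in 20 groups, is for normally spread values and does not apply to genes at 0 in 6 cells, which always pass. Htr6 was at 41.4 TPM and Htr2c at 6.20 TPM in cell 2, the library with the most counts. Htr7 was at 8.78 TPM in cell 4, Htr1a at 8.51 TPM in cell 5 and Htr3b at 2.34 TPM in cell 3. The other 6 cells were at 0 for Htr6, Htr7, Htr1a and Htr3b and had at most 1 count for Htr2c.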

How the results depend on the processing

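Across the alternatives, 58 recomputed summary values stayed close to those reported and 10 moved. They are counts and a share, so a change of sign was not possible. A count within a set ratio of the reported one was taken as close, which was a wide margin as well. For example, 15 or 8 member values above 1 TPM in place of 11 were taken as close. So were 2 cells with Htr3a in place of 3, and 63 genes with r of at least 0.9 to Htr3a in place of 45. For the Htr3a share the margin was wide, the SD between cells of 44.9 percentage points. Of the recomputed values for single genes, 145 stayed close and 21 moved. The number of member values above 1 TPM became 21 with the threshold lowered to 0 TPM and 4 with it raised to 10 TPM, which 2 members passed in at least 1 cell. Rescaled over protein-coding genes, 15 member values were above 1 TPM, and Htr3a was above it in 4 cells. Genes with r of at least 0.9 to Htr3a numbered 92 with a pseudocount of 10 and 18 after rescaling over protein-coding genes, and the cause of these shifts was not tested. Leaving out each cell gave 57 to 279 such genes, where fewer cells make a high r easier to reach, 6 to 8 members detected, 8 to 11 values above 1 TPM, 2 to 3 cells with Htr3a, 2 to 3 cells led by Htr3a and a Htr3a share of 87.6% to 92.1%. No paired analysis was possible because there is 1 group. Values at 0 are limited by the floor, which for Htr1b exceeded 1 TPM in 5 cells, the deepest library included.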
